A study of Saccharomyces cerevisiae with 24 samples.

Results

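The haploid yeast strain D1/2/8 (NVY3) was compared with the strain D1/8 (KLY194), whose listed karyotype lacks only the extra copy of chromosome II. Both are S288C derivatives in which chromosomes I and VIII are duplicated, and D1/2/8 carries chromosome II in duplicate as well. The comparison rested on all libraries of sequencing run 2 labelled with these genotypes, 6 of the 24 libraries of the series. D1/2/8 was grown as 1 culture, and D1/8 as 2 replicate cultures. Each culture gave 1 library of ribosome-protected fragments (footprints, FP) and 1 library of total mRNA. All cells were grown in rich medium and received cycloheximide before harvest, and both fractions came from the same clarified lysate. The study's strain list gives D1/2/8 as a MATa strain with auxotrophies for uracil, histidine, tryptophan and leucine and with a mutant allele of CAK1, the kinase that activates Cdc28. It gives D1/8 as a MATa derivative of D1/2/8, auxotrophic for uracil, histidine and leucine, in which a TRP1 cassette restored CAK1. Each strain is thus 1 lineage, so chromosome II cannot be told apart from anything else that differs between the lineages.

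A chromosome present in an extra copy supplies each of its genes with 1 more template, and transcripts of most yeast genes follow gene dosage. Protein complexes such as the proteasome and the ribosome need their subunits in fixed proportions, so that gain of a single chromosome leaves some subunits without partners. Ribosome footprints report which coding sequences are being translated, and the ratio of footprints to mRNA (ribosome density) reports how heavily a message is loaded. Proteins with a signal sequence or a transmembrane segment are translated at the endoplasmic reticulum (ER), and their ribosomes can be bound to membrane.

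Levels are RPKM, mapped reads per kilobase of coding sequence scaled to library size, and are shares of a library, so that a higher share of some ORFs lowers that of others. Ratios are log2 of D1/2/8 over D1/8 and were shifted so that the median over ORFs outside chromosome II was 0. The FP libraries held 9244327 reads in D1/2/8, against 13161722 and 24936764 in D1/8, as recovered from the deposited values. The mRNA libraries held 26672768 reads in D1/2/8, against 37174209 and 34019010 in D1/8. The median ORF above 0 had 334 reads or more in FP and 1853.5 or more in mRNA. The 2 D1/8 cultures lay close together. The SD of their log2 ratio was 0.19 in both fractions, and 1.69% of ORFs in FP and 1.96% in mRNA were at least 1.5-fold apart. They were not 1 library deposited in duplicate, since their recovered reads differed by more than sampling noise (chi-square per degree of freedom 8.2 in FP and 13.3 in mRNA).

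The markers of the strain labels were examined first, and the D1/8 libraries went against theirs. TRP1, the tryptophan synthesis enzyme of the stated cassette, stood in FP at 0 RPKM in D1/2/8, against 0 and 0.3 RPKM in the libraries labelled D1/8. In mRNA it stood at 0.7 RPKM in D1/2/8, against 0 and 0 RPKM in those libraries. The strain D1/2/8/11 of the same run, which has a TRP1 cassette too, gave 374.5 and 358.2 RPKM in mRNA. The mRNA of CAK1, which the cassette restored, was 37.5 RPKM in D1/2/8, against 45.3 and 37.6 RPKM in D1/8, while it reached 186.5 and 182.7 RPKM in D1/2/8/11. CAK1 footprints were 24.2 RPKM in D1/2/8, against 24.5 and 24.8 RPKM in D1/8. The cassette was therefore not seen in the libraries labelled D1/8 (KLY194), and RPKM cannot tell which CAK1 allele either strain carries. The karyotype of the label was seen: relative to the euploid strain (WT) of run 2, the D1/8 median was 1.10 on chromosome I, 0.00 on chromosome II and 0.98 on chromosome VIII in FP. Mating type matched the label, since MF(ALPHA)1 stood at 0 RPKM in D1/2/8 FP and at 0 and 1.9 RPKM in D1/8 FP and MFA2 gave 362.4 RPKM in D1/2/8, against 287.4 and 267.7 RPKM in D1/8. One FP library that enters the estimate of spread also went against its label (replicate 1 of D13, KLY195, a strain with chromosome XIII in duplicate, with TRP1 at 0.8 RPKM against 104.6 RPKM in replicate 2), so FP counts are also given without the strain KLY195 where that moved them by over 1.5 times.

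ORFs of chromosome II were 1.79-fold higher in D1/2/8 than in D1/8 at the median in FP and 1.89-fold higher in mRNA. The log2 median was 0.823 against D1/8 replicate 1 and 0.868 against replicate 2 in FP (347 ORFs), while the D1/8 cultures differed by 0.001 from each other. In mRNA the median was 0.900 and 0.932 against the 2 cultures (379 ORFs). Over ORFs with no predicted hydrophobic segment (described with the segment classes), the medians were 0.97 in FP and 0.98 in mRNA. The gain ran along the whole chromosome. When these ORFs were divided into 8 stretches by position, the medians lay between 0.82 and 1.08 in FP and between 0.85 and 1.18 in mRNA. Single ORFs were spread more widely, with 62.2% of ORFs in FP (216 of 347) and 63.9% in mRNA (242 of 379) between 0.5 and 1.5. In run 1, D2, which carries only chromosome II in duplicate and shares no library with these strains, had medians of 0.87 and 0.88 over WT.

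**Figure D1:**
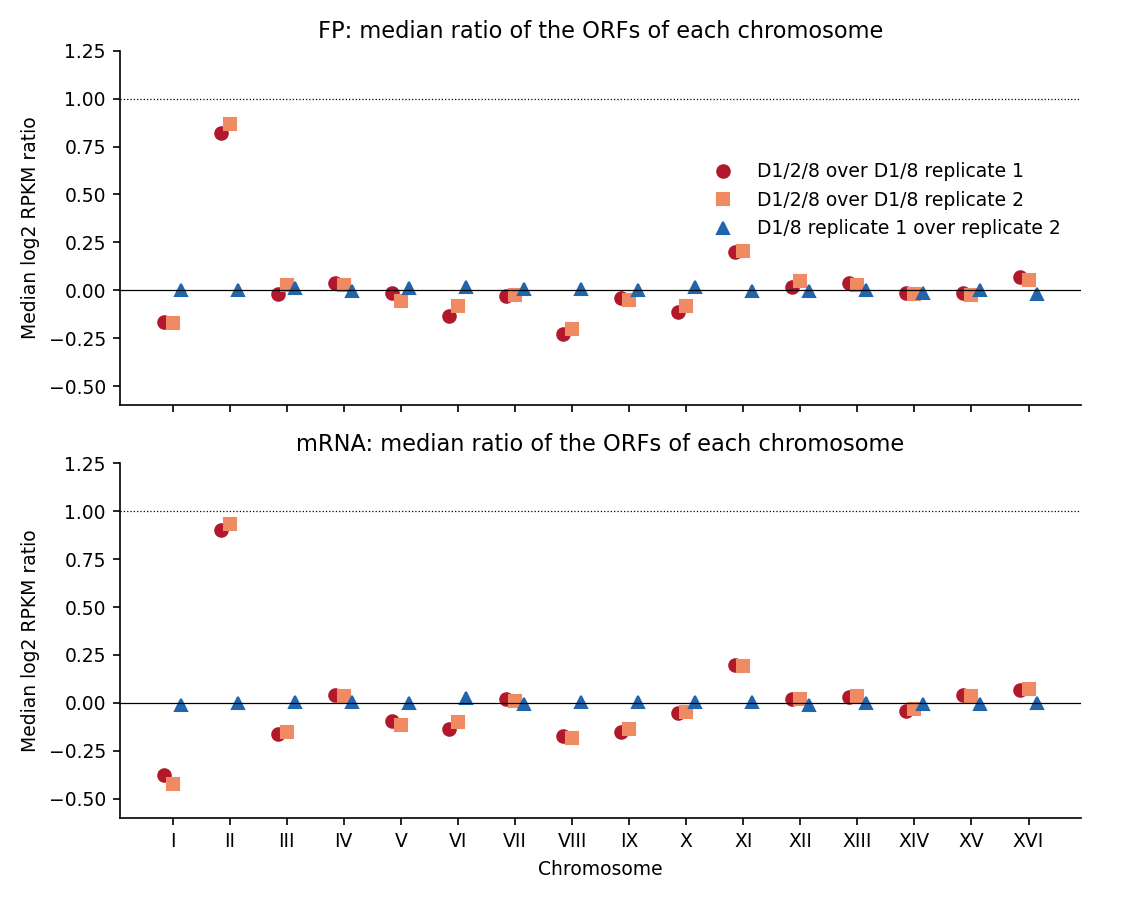
Median log2 ratio of RPKM of the ORFs of each chromosome in FP and mRNA, shifted to a median of 0 outside chromosome II, for D1/2/8 over D1/8 and for the 2 D1/8 cultures over each other. Chromosome II stands at 0.84 in FP and 0.92 in mRNA, chromosome XI at 0.22 and 0.20, and the D1/8 cultures stay near 0 on every chromosome.

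Chromosome XI was also higher in D1/2/8, by less, although neither listed karyotype gives it in duplicate. Its median was 0.22 in FP (280 ORFs) and 0.20 in mRNA (309 ORFs), or 1.16-fold and 1.15-fold. Over ORFs with no predicted segment the medians were 0.31 in both fractions, and 4 stretches of the chromosome gave 0.27 to 0.41 in FP and 0.14 to 0.40 in mRNA. Relative to WT of run 2 the chromosome stood at 0.23 and 0.22 in D1/2/8 (FP and mRNA), against 0.02 and 0.00 in D1/8. D1/2/8/11, in which the chromosome is listed as duplicated, stood at 0.99 and 1.00 over D1/8. Why chromosome XI was higher was not tested. Chromosomes I and VIII, duplicated in both strains, were lower in D1/2/8, with medians of -0.15 and -0.18 in FP and -0.41 and -0.15 in mRNA. Over ORFs with no predicted segment they were 0.02 and 0.04 in FP and -0.21 and -0.02 in mRNA.

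Gene by gene, D1/2/8 was set against D1/8 with limma over the 8 aneuploid libraries of run 2 of a fraction, and p-values were Benjamini-Hochberg adjusted over all ORFs. The lone D1/2/8 library was assumed to vary like the strains with 2 cultures. Of 343 chromosome II ORFs tested in FP, 200 rose and 32 fell (adjusted p under 0.05), and without KLY195 241 rose and 46 fell. Of 4690 ORFs outside chromosome II, 7.89% rose and 18.9% fell, and without KLY195 18.9% rose and 25.2% fell. In mRNA, 319 of 375 chromosome II ORFs rose and 27 fell, against 33.5% and 34.5% of 5095 ORFs elsewhere. A plainer count took ORFs in which D1/2/8 was at least 1.5-fold from both D1/8 cultures in 1 direction, and farther from the nearer culture than the cultures were from each other. It found 217 higher and 36 lower of 342 chromosome II ORFs in FP (6.72% and 21.7% elsewhere) and 247 higher and 11 lower of 373 in mRNA (8.71% and 17.0% elsewhere).

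Cell cycle and core gene expression factors were among the chromosome II ORFs whose FP change was not called apart from copy number. CDC28, the cyclin-dependent kinase that Cak1 activates (chrII:560078-560974 of the R64 assembly), had 191 RPKM in D1/2/8 FP, against 89.4 and 98.6 RPKM in D1/8. Its log2 change was 1.03 ± 0.22 (SE, adjusted p = 0.018 by limma) in FP and 1.03 ± 0.07 in mRNA. CKS1, which encodes the small subunit bound to Cdc28, had 305 RPKM in D1/2/8, against 135 and 114 RPKM in D1/8 (log2 change 1.31). The glycyl-tRNA synthetase gene GRS1 rose by 1.06, and SUP45, which encodes a release factor of translation, rose by 1.33. TEF2, one of the paired genes for elongation factor eEF1A, rose by 1.15, and its partner TEF1 on chromosome XVI was listed as rising by 1.12. Reads of TEF1, and so those of its partner TEF2, cannot be assigned with confidence. Of the TEF1 stretches of 28 bases, 95.9% also occur in a chromosome II ORF. Of 29 ORFs outside chromosome II that share at least 10% of such stretches with it, 2 were called higher, TEF1 and RPS8B, and 8 were called lower.

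UMP1, PRE7 and RPB5 lay above the rise that 1 extra copy gives. UMP1, whose product chaperones assembly of the 20S proteasome core (chrII:581726-582172), had 525 RPKM in D1/2/8 FP, against 164 and 157 RPKM in D1/8, a log2 change of 1.72 ± 0.12 (limma adjusted p = 0.00088). Its mRNA was 194 RPKM in D1/2/8, against 134 and 160 RPKM in D1/8, so that its ribosome density was higher by 1.30 ± 0.21 (limma adjusted p = 0.020). PRE7, a subunit of the 20S core, had 894 RPKM in D1/2/8 FP, against 299 and 306 RPKM in D1/8 (log2 change 1.57 ± 0.13). RPB5, a subunit shared by the nuclear RNA polymerases, had 647 RPKM in D1/2/8, against 185 and 205 RPKM in D1/8 (log2 change 1.74 ± 0.13). In these 3 genes the D1/2/8 library was far outside the pair of D1/8 libraries, and FP was above a log2 change of 1 (limma adjusted p = 0.0080 for UMP1, 0.023 for PRE7 and 0.0093 for RPB5). These calls were lost when either D1/8 culture was left out. The proteasome assembly factor HSM3 rose by 0.96, near the change of 1 that the extra copy gives.

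Copy number itself was tested by asking whether a chromosome II ORF differed from a log2 change of 1. In FP, 13 of 343 ORFs were above it and 84 were below it, against 7.42% above and 18.6% below equal copy number among ORFs elsewhere. Without KLY195 the counts were 34 and 112, and leaving out either D1/8 culture gave 0 above (11 and 17 at an unadjusted p below 0.05) and 53 below. In mRNA 86 ORFs were above it and 159 below it, against 33.4% and 34.4% elsewhere. Of the 84 low ORFs in FP, 55 encode proteins with a predicted segment (of 86 such ORFs tested) and 29 do not (of 257), and none of the 13 high ORFs has a segment.

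The 6 highest ratios of chromosome II in FP among ORFs of at least 10 RPKM in all 3 libraries were those of RPL32, GPX2, HSP26, CTP1, CNS1 and DUT1. RPL32, which encodes a protein of the large ribosomal subunit, had 20950 RPKM in D1/2/8 FP, against 4513 and 5756 RPKM in D1/8, a log2 change of 2.05 ± 0.24 (copy number test, limma adjusted p = 0.023). GPX2, a peroxidase gene, had 876 RPKM in D1/2/8, against 235 and 227 RPKM in D1/8 (log2 change 1.93 ± 0.34). HSP26, a small heat shock protein gene, had 118 RPKM in D1/2/8, against 27.2 and 23.9 RPKM in D1/8, with a log2 change of 2.19 ± 0.71 that missed the threshold (limma adjusted p = 0.063). Each of these was at least 3-fold above both D1/8 cultures. The mitochondrial citrate carrier gene CTP1 rose by 1.78 and DUT1, the dUTPase gene, by 1.75. Among chaperone genes, CNS1, a partner of Hsp90 and Hsp70, rose by 1.75, FES1 by 1.16 and SSA3, an Hsp70 gene with 12.3 RPKM in D1/2/8 against 1.30 and 0.83 RPKM in D1/8, by 3.06. SSE2 had a log2 change of 0.05 (limma adjusted p = 0.88).

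Ribosome assembly factors of the chromosome rose, with ENP1 at 1.34, UTP20 at 1.04, REI1 at 1.54 and MAK5 at 1.19. Of the histone genes, HTB2 rose by 1.24, HTA2 by 1.21 and HHT1 by 0.66. HHF1, which encodes histone H4, had 3132 RPKM in D1/2/8 FP, against 3512 and 3666 RPKM in D1/8, and 6098 RPKM in D1/2/8 mRNA, against 4637 and 4102 RPKM in D1/8. Its FP was below copy number (limma adjusted p = 0.0030), and 45.6% of its stretches of 28 bases occur in other ORFs. In mRNA, the highest ratios were those of ECM13 (2.07), MUM2 (1.93), SHE3 (1.92) and YBR138C (1.82). GAL7, an enzyme of galactose use, had 15.5 RPKM in D1/2/8 mRNA, against 6.38 and 7.81 RPKM in D1/8, and GAL1 had 6.62 RPKM in D1/2/8, against 5.41 and 6.00 RPKM in D1/8.

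Membrane and secretory proteins made up most of the low end of chromosome II. MNN2, a Golgi mannosyltransferase gene (chrII:267710-269503), had 36.9 RPKM in D1/2/8 FP, against 130 and 130 RPKM in D1/8, a log2 change of -1.79 ± 0.36 (limma adjusted p = 0.014). Its mRNA was 106 RPKM in D1/2/8, against 162 and 167 RPKM in D1/8. PEP1, the vacuolar sorting receptor gene, had 27.7 RPKM in D1/2/8 FP, against 78.2 and 77.8 RPKM in D1/8 (log2 change -1.47 ± 0.16). ROT2, a glucosidase of ER quality control, fell by 1.45, ATG42, a vacuolar carboxypeptidase gene, by 1.42, and AGP2, a plasma membrane regulator of transport, by 1.35. COS2 fell by 1.51, but all of its stretches of 28 bases occur in other ORFs. Each of these was lower than in D1/8 in spite of the extra gene copy.

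Some chromosome II genes fell in both fractions. APE3, a vacuolar aminopeptidase gene with no segment by the rule used, had 369 RPKM in D1/2/8 FP, against 800 and 826 RPKM in D1/8, and 254 RPKM in D1/2/8 mRNA, against 518 and 580 RPKM in D1/8. Its log2 change was -1.13 ± 0.18 in FP (limma adjusted p = 0.0059) and -1.09 ± 0.07 in mRNA. TOS1, a cell wall protein gene, fell by 0.85 in FP and 1.19 in mRNA. PDR3, one of the transcription factors of the pleiotropic drug response (chrII:217470-220400), had 13.2 RPKM in D1/2/8 FP, against 29.0 and 24.4 RPKM in D1/8, and 23.5 RPKM in D1/2/8 mRNA, against 45.2 and 47.3 RPKM in D1/8. YBL113C, at the left chromosome end, fell by 1.27 in mRNA, and 88.9% of its stretches of 28 bases occur elsewhere. In D2, the FP change over WT was 0.92 for APE3, 1.10 for TOS1 and 0.00 for PDR3.

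**Figure D2:**
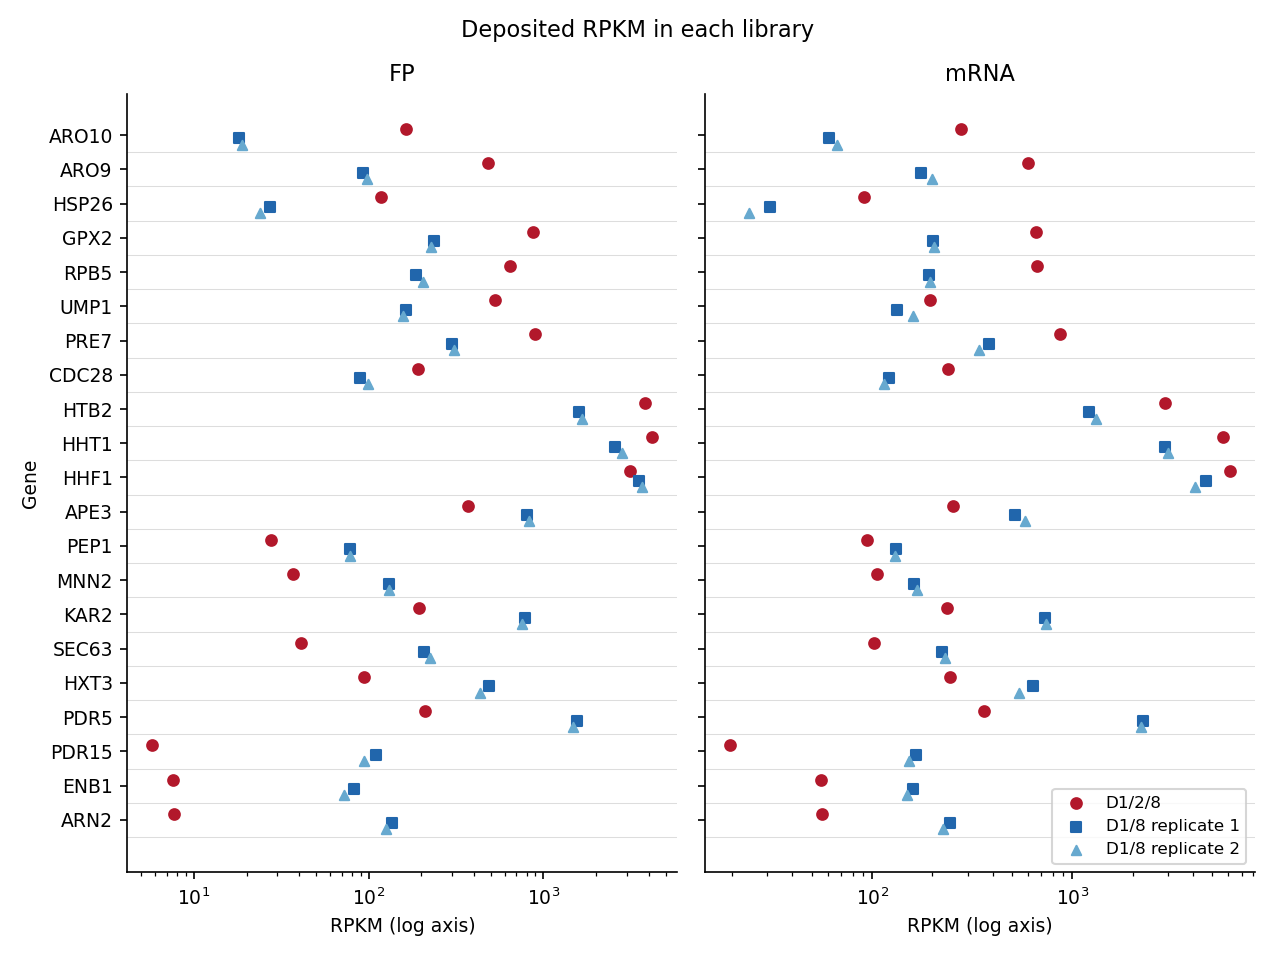
RPKM on a log axis of selected genes in the single D1/2/8 library and in the 2 D1/8 libraries of each fraction. The D1/8 points of a gene nearly coincide, while ARO10 and ARO9 lie far above them in D1/2/8 and PDR15, PDR5 and ARN2 far below.

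Transporters of amino acids on the chromosome showed higher mRNA without higher footprints. BAP2, a branched-chain amino acid permease gene, had 839 RPKM in D1/2/8 mRNA, against 454 and 429 RPKM in D1/8, but 121 RPKM in D1/2/8 FP, against 196 and 182 RPKM in D1/8. TAT1, a permease gene for tyrosine and tryptophan, had log2 changes of 0.57 in mRNA and -0.57 in FP, and its ribosome density fell by 1.14 (limma adjusted p = 0.022). YPC1, a ceramidase gene, rose by 0.44 in mRNA and fell by 0.92 in FP. ATP1, the alpha subunit of the mitochondrial ATP synthase with no segment, had 438 RPKM in D1/2/8 FP, against 474 and 451 RPKM in D1/8, below copy number (limma adjusted p = 0.0025). Over the 84 ORFs below copy number in FP, the median change was -0.50 in D1/2/8 over D1/8, and 83 of them had a median of 0.92 in D2 over WT. For the 55 with a segment the medians were -0.73 and 1.02, and for the 29 without one -0.06 and 0.60. The 13 ORFs above copy number had medians of 1.65 and 1.19. These ORFs were picked on the D1/2/8 values, so their medians there are a description.

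The presence of a hydrophobic segment separated the ORFs outside chromosome II. A segment was called in a protein wherever a window of 19 residues averaged 1.6 or more on the Kyte-Doolittle scale. It was also called where a window of 11 within the first 35 residues averaged 2 or more. ORFs with no coding sequence in the reference could not be searched and were counted as having no segment. In FP, the median log2 ratio was -0.63 for 1502 ORFs with a segment and 0.12 for 3236 ORFs without one, and 74.9% and 38.4% of them lay below 0. In mRNA the medians were -0.27 (1647 ORFs) and 0.10 (3549 ORFs). On chromosome II they were -0.30 (89) and 0.97 (258) in FP and 0.47 (100) and 0.98 (279) in mRNA. The difference held against each D1/8 culture, at -0.78 and -0.76 in FP and -0.36 and -0.37 in mRNA outside chromosome II. The D1/8 cultures over each other gave 0.02 and -0.01 in FP.

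**Figure D3:**
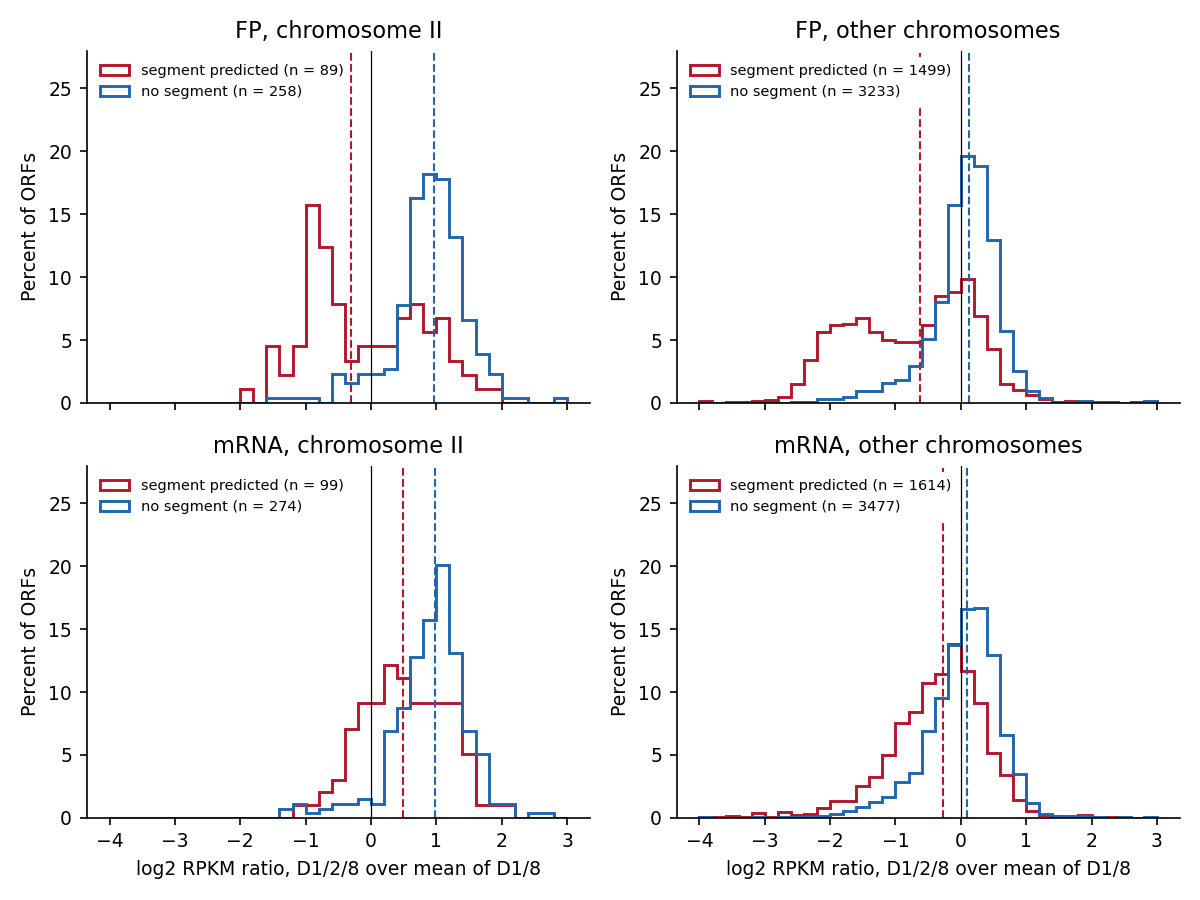
Percent of tested ORFs (mean RPKM of at least 1) in bins of the log2 ratio of D1/2/8 over D1/8, for FP and mRNA and for ORFs with and without a predicted segment, on chromosome II and elsewhere, with values past either end in the end bins. In FP the ORFs with a segment reach far below 0 both on chromosome II and elsewhere, while the ORFs without one gather near 1 on chromosome II and near 0 elsewhere.

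The class difference was on the D1/2/8 side. Relative to WT of run 2, FP medians outside chromosome II with and without a segment were -0.70 and 0.13 in D1/2/8, against -0.02 and 0.01 in D1/8. D1/2/8/11 over the same D1/8 libraries gave -0.65 and 0.13. D2 over WT in run 1 gave 0.00 and 0.00, and on chromosome II 0.98 and 0.81. D1/2/8 is 1 culture, and whether the class difference came from its lysate, its library or its cells was not tested. Of the tested ORFs outside chromosome II, 886 of 4690 fell in FP, and 661 of these have a segment (of 1467 with one). Of the 370 that rose, 45 have a segment. Called ORFs that also lay beyond the D1/8 spread numbered 206 higher and 823 lower, of which 21 and 630 have a segment. Without KLY195, 885 rose and 1181 fell.

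ARO10 and ARO9 were among the largest rises in FP outside chromosome II. They encode the decarboxylase and the aminotransferase of aromatic amino acid breakdown. ARO10 (chrIV:1234218-1236125) had 164 RPKM in D1/2/8 FP, against 18.2 and 18.9 RPKM in D1/8, a log2 change of 3.12 ± 0.25 (8.7-fold, limma adjusted p = 0.0010). Its mRNA was 278 RPKM in D1/2/8, against 61.1 and 66.8 RPKM in D1/8 (2.13 ± 0.07). ARO9 (chrVIII:375709-377250) had 483 RPKM in D1/2/8 FP, against 92.2 and 97.1 RPKM in D1/8, a log2 change of 2.35 ± 0.20 (5.1-fold, limma adjusted p = 0.0011). Its mRNA was 602 RPKM in D1/2/8, against 175 and 199 RPKM in D1/8 (1.70 ± 0.08). The D1/8 cultures differed little from each other in both genes. In D2 the FP changes over WT were 0.46 and 0.05, and in D1/2/8/11 over D1/8 they were 3.20 and 2.57. Of 9 tested genes of the list of aromatic amino acid breakdown, 3 rose in FP and none fell, the third being PDC5 (0.54). Over all ORFs outside chromosome II 7.89% rose and 18.9% fell.

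The activator Aro80 is known to bind repeats of CCG upstream of both genes. A pair of CCG triplets 7 bases apart on 1 strand, searched on both strands of 800 bases upstream of 5620 ORFs, was present for 443 (7.88%) and for 3 of the 10 genes of the list. The runs of CCG triplets are shown for the 2 genes, with the triplets in capitals, at chrIV:1233864-1233920 (plus strand) for ARO10 and chrVIII:375532-375588 (plus strand) for ARO9, both of the R64 assembly.
ARO10: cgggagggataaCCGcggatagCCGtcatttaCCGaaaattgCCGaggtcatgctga
ARO9: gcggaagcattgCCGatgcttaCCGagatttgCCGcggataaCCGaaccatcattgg
Each shows 4 triplets at the same spacing, 298 to 354 bases before the start codon in ARO10 and 121 to 177 bases before it in ARO9. These matches describe letters and are no evidence of binding in these cells.

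The other 8 of the 10 largest FP rises, taken among called ORFs beyond the D1/8 spread with an RPKM of at least 10, were of mixed kind. SER3, an enzyme of serine synthesis, had 149 RPKM in D1/2/8, against 64.5 and 60.9 RPKM in D1/8 (2.38-fold, limma adjusted p = 0.0021). NUP100, a nuclear pore gene on chromosome XI, had 51.5 RPKM in D1/2/8, against 21.9 and 21.4 RPKM in D1/8 (1.24 ± 0.13). PIR3, a cell wall gene also on chromosome XI, rose by 1.56 in FP and fell by 0.39 in mRNA. Against these, IRC13 (2.53), YLR294C (2.46), YDR278C (1.33), VPS63 and CLG1 (1.19) lost the call when 1 D1/8 culture was left out, with limma adjusted p of up to 0.21. VPS63 overlaps another ORF over 97.9% of its length, and its reads may belong to that ORF. Of 277 tested ORFs of chromosome XI, 42 rose and 36 fell in FP (over all ORFs outside chromosome II 7.89% rose and 18.9% fell), and without KLY195 93 rose and 48 fell.

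Targets of the multidrug resistance activators Pdr1 and Pdr3 fell in FP. PDR15, an ABC transporter gene (chrIV:1279210-1283799), had 5.77 RPKM in D1/2/8 FP, against 110 and 94.3 RPKM in D1/8, a log2 change of -4.02 ± 0.23 (limma adjusted p = 0.00088). Its mRNA was 19.5 RPKM in D1/2/8, against 166 and 154 RPKM in D1/8 (-2.99 ± 0.09). PDR5, the main drug efflux pump gene (chrXV:619840-624375), had 210 RPKM in D1/2/8 FP, against 1562 and 1481 RPKM in D1/8 (-2.85 ± 0.19), and 364 RPKM in D1/2/8 mRNA, against 2256 and 2211 RPKM in D1/8. The transporter genes SNQ2 and YOR1 fell by 2.40 and 2.54, the polyamine exporter gene TPO1 by 2.26 and RSB1, a lipid translocation gene, by 2.99. In the list of targets of Pdr1 and Pdr3, 8 of 10 tested genes fell in FP and none rose, with a median of -2.33, and 9 of these 10 have a segment. Outside chromosome II, 18.9% of all ORFs and 661 of 1467 ORFs with a segment fell in FP. In mRNA 9 of 13 genes of the list fell, against 34.5% of all ORFs and 837 of 1614 ORFs with a segment. Of these 13 genes 12 have a segment, and 8 of the 12 fell in mRNA. D2 over WT gave -3.24 for PDR15 and -3.02 for RSB1, but -0.41 for PDR5 and -0.03 for SNQ2. PDR3, which encodes an activator of this network, fell as given above. Whether its level bore on that of the targets was not tested.

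The pleiotropic drug response element, the site bound by Pdr1 and Pdr3, was searched as TCCGCGGA or TCCACGGA on both strands of the 800 bases upstream. It was found for 133 of 5620 ORFs (2.37%) and for 13 of the 14 genes of the list. The list holds targets of these factors, so the matches are no evidence that either acted in these cells. The element is shown in capitals with 12 bases on each side, read on the strand of the gene. Shown are PDR5 at chrXV:619515-619546 (plus strand), PDR15 at chrIV:1278819-1278850 (plus strand), SNQ2 at chrIV:465323-465354 (plus strand) and YOR1 at chrVII:1052411-1052442 (plus strand).
PDR5: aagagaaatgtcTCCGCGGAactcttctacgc
PDR15: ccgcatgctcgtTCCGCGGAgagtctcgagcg
SNQ2: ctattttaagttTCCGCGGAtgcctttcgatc
YOR1: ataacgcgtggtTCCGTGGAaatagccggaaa
YOR1 carries the second form read from the other strand. PDR5 has 4 matches and SNQ2 has 3 in the 800 bases, and 1 of each is shown.

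ARN2 and ARN1, siderophore transporter genes, and ENB1, the enterobactin transporter gene, fell together with FIT1, a cell wall protein gene of siderophore retention. ARN2 (chrVIII:8351-10213) had 7.71 RPKM in D1/2/8 FP, against 137 and 126 RPKM in D1/8, a log2 change of -3.99 ± 0.51 (limma adjusted p = 0.0027), and its mRNA had 56.2 RPKM in D1/2/8, against 246 and 227 RPKM in D1/8. FIT1 had 3.57 RPKM in D1/2/8 FP, against 47.6 and 37.7 RPKM in D1/8 (-3.38 ± 0.46). ENB1 had 7.53 RPKM in D1/2/8, against 82.0 and 72.1 RPKM in D1/8 (-3.26 ± 0.22), and ARN1 had 5.67 RPKM in D1/2/8, against 55.0 and 49.1 RPKM in D1/8 (-3.08 ± 0.30). In D2 the same FP ratios over WT were 3.33 for ARN2, 1.54 for ENB1 and 2.89 for ARN1. The core site of the iron regulator Aft1, TGCACCC, is present on either strand within 800 bases upstream of 214 of 5620 ORFs (3.81%), these 4 genes among them. It is shown in capitals with 12 bases on each side, on the strand of each gene, for ARN2 (chrVIII:10642-10672, minus strand), ARN1 (chrVIII:21213-21243, minus strand), ENB1 (chrXV:21430-21460, minus strand) and FIT1 (chrIV:1505064-1505094, minus strand).
ARN2: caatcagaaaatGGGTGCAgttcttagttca
ARN1: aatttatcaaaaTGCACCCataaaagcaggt
ENB1: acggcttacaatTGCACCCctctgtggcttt
FIT1: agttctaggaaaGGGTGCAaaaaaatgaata
The genes to be shown were chosen after their values were seen, and the matches do not show that Aft1 acted.

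Falls were not limited to ORFs with a segment. DLD1, the mitochondrial D-lactate dehydrogenase gene, had 21.4 RPKM in D1/2/8 FP, against 129 and 129 RPKM in D1/8 (log2 change -2.56 ± 0.21). The phospholipase gene PLB2 fell by 2.29, TCB1, a tether of ER and plasma membrane, by 2.13, and SIM1, a cell wall gene, by 2.05. SIM1 was lower still in mRNA, with 20.6 RPKM in D1/2/8, against 293 and 313 RPKM in D1/8 (-3.84 ± 0.11). YHR214W (-3.40) and YAR066W (-3.07) also fell, but 95.2% of their stretches of 28 bases occur in other ORFs and each cannot be read alone. The products of PLB2, SIM1 and TCB1 are known at the cell wall or at membranes, although the rule called no segment in them. TVS1 (-2.92) fell as well, and it has a segment.

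In the lists of the ER and of transporters at the cell surface most genes fell in FP. Outside chromosome II, 18.9% of all ORFs fell and 7.89% rose, and 661 of 1467 ORFs with a segment fell. In the list of ER folding and translocation, 20 of 26 tested genes fell in FP and 2 rose, with a median of -1.68, and 22 of the 26 have a segment. KAR2, the ER Hsp70 gene, had 195 RPKM in D1/2/8 FP, against 788 and 753 RPKM in D1/8 (log2 change -1.97 ± 0.26), and 237 RPKM in D1/2/8 mRNA, against 732 and 737 RPKM in D1/8. SEC63, a component of the translocon, had 40.9 RPKM in D1/2/8 FP, against 207 and 224 RPKM in D1/8 (-2.37 ± 0.30). The glucosidase gene CWH41 fell by 2.38 and the disulphide isomerase genes EUG1 and EPS1 by 1.98 and 1.96. The 2 that rose were SSS1 (0.98), a small subunit of the translocon, and SEC72 (0.53). In D2 over WT the median of this list was 0.05.

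At the plasma membrane, 6 of 10 hexose transporter genes and 9 of 15 amino acid permease genes fell in FP and none rose, with medians of -1.81 and -1.48. All of these genes have a segment. Of all ORFs with a segment outside chromosome II, 661 of 1467 fell and 45 rose, with a median of -0.61. Over all ORFs there, 18.9% fell and 7.89% rose. HXT3, a low-affinity glucose transporter gene, had 94.4 RPKM in D1/2/8, against 485 and 431 RPKM in D1/8 (-2.26 ± 0.15). PMA1, the proton pump gene, had 869 RPKM in D1/2/8, against 3713 and 3595 RPKM in D1/8 (-2.06 ± 0.17), and GAS1, a cell wall glucanosyltransferase gene, had 341 RPKM in D1/2/8, against 1573 and 1573 RPKM in D1/8 (-2.20 ± 0.28). LYP1, a lysine permease gene, fell by 1.78. Of the MATa genes, 3 of 7 fell in FP, STE6 by 2.02, STE2 by 1.83 and BAR1 by 1.35, and 5 of the 7 have a segment. Without KLY195, a MATalpha strain, ASG7 fell too, while the pheromone genes MFA1 and MFA2 and the agglutinin gene AGA2 rose. AGA2 had 42.6 RPKM in D1/2/8 FP, against 16.2 and 17.9 RPKM in D1/8, and MFA1 had 140.2 RPKM in D1/2/8, against 67.03 and 92.52 RPKM in D1/8. In HXT3, PMA1 and GAS1 both D1/8 cultures were several times above D1/2/8.

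In contrast, the proteasome and ribosome assembly lists held rises. Of 12 tested genes of the 20S proteasome outside chromosome II, 7 rose in FP and none fell, with a median of 0.52, against a median of 0.00 over all 4690 ORFs, of which 7.89% rose and 18.9% fell. PRE4 rose by 0.76, with 452 RPKM in D1/2/8, against 279 and 259 RPKM in D1/8, and PRE8 by 0.73. Of 18 genes of the 19S particle 6 rose and none fell (median 0.39), among them RPN10 by 0.76 and RPN9 by 0.71. Of 59 assembly factors of the 60S subunit 29 rose and 1 fell (median 0.52), and of 49 genes of the small-subunit processome 15 rose and none fell (median 0.40). Without KLY195 the rises were 11 in the 19S list, 46 among the 60S factors and 29 in the processome list. MRT4, on chromosome XI, had 466 RPKM in D1/2/8, against 208 and 218 RPKM in D1/8 (1.14 ± 0.13), and REX4 had 80.1 RPKM in D1/2/8, against 34.3 and 40.1 RPKM in D1/8 (1.11 ± 0.20). Most of these genes have no segment, and ORFs without one had a median of 0.11. The medians in D2 over WT were 0.36 for the 20S genes, 0.38 for the 19S genes, 0.52 for the 60S factors and 0.47 for the processome.

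Lists of the stress response were counted against the 7.89% of ORFs outside chromosome II that rose and the 18.9% that fell in FP. Of 241 tested genes induced in the environmental stress response, 9 rose and 53 fell in FP (median -0.27). The share that fell was near that of all ORFs. By class, 36 of 78 induced genes with a segment and 17 of 163 without one fell. Over all ORFs outside chromosome II, 661 of 1467 with a segment and 225 of 3223 without one fell. Of 426 genes repressed in that response, 123 rose and 28 fell (median 0.41). Of 80 genes of the heat shock response, 4 rose and 26 fell (median -0.41), and the 4 were ARO9, INH1, SSA4 and CPR6. In this list 15 of 29 genes with a segment fell, and 11 of 51 without one. Without KLY195 there were 18 rises and 92 falls among the induced genes, 259 rises and 31 falls among the repressed genes and 10 rises and 41 falls in the heat shock list, where 18.9% of all ORFs rose and 25.2% fell. Cytosolic chaperone genes gave 5 rises and 1 fall of 39, with SSA4, a stress-induced Hsp70 gene, at 20.4 RPKM in D1/2/8, against 10.8 and 10.9 RPKM in D1/8 (0.89 ± 0.13), and YDJ1, an Hsp40 gene, up by 0.76. Without KLY195 15 of these chaperone genes rose and 3 fell. Their mRNA median was -0.09, and 0.02 with the correction for GC content. Trehalose and glycogen genes gave 1 rise and 4 falls of 18 (median -0.56), and 2 and 9 without KLY195. The lists of stress genes come from the study, which examined them in these libraries, so their counts are not independent evidence of a direction.

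The other lists were counted in the same way, against the shares of all ORFs outside chromosome II, 7.89% higher and 18.9% lower in FP. Of 31 tested genes of the respiratory chain and ATP synthase 7 rose and 4 fell in FP, COX5A by 0.82 at the high end and NDE1, an NADH dehydrogenase gene, by -1.46 at the low end. Of 10 genes of tryptophan synthesis and uptake, ARO7 rose by 0.58 and TAT2, the tryptophan permease gene, fell by 1.31. Of 17 phosphate genes 4 fell, a share near that of all ORFs, and none rose, and of 17 genes of Cak1, cyclin-dependent kinases and cyclins 2 rose, CCL1 by 0.65 and the G1 cyclin gene CLN3 by 0.81. Of 21 genes of glycolysis and fermentation, PDC5 rose and PYK2 fell. Of 34 translation factor genes 5 rose and 1 fell, of 13 genes of proteasome assembly and regulation NAS6 rose, and of 6 galactose genes MTH1 rose and PGM2 fell. Without KLY195, against 18.9% higher and 25.2% lower over all ORFs, 16 respiratory genes rose and 6 fell, 16 translation factor genes rose and 1 fell, 7 phosphate genes fell, and 5 genes of the list of Cak1 and cyclins rose. In that fit the tryptophan list gave 4 rises and 1 fall, glycolysis 3 and 4, and proteasome assembly 2 and 1. By limma, 0 of 7 histone genes outside chromosome II were called, with 3 higher and 0 lower at an unadjusted p below 0.05, and without KLY195 3 rose and 1 fell. Of 4 MATalpha genes and 3 auxotrophic marker genes 0 were called, adjusted or not.

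**Figure D4:**
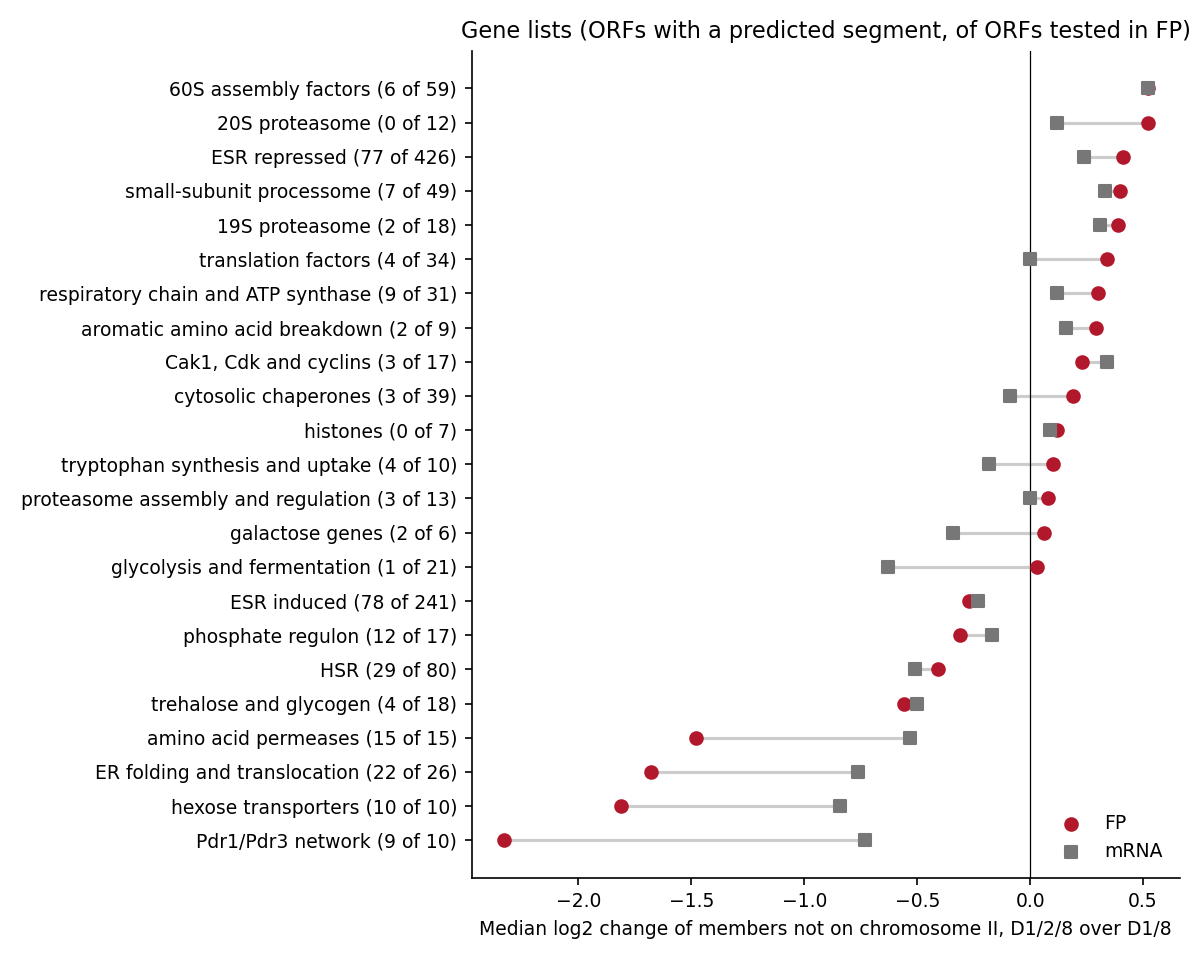
Median log2 change of each gene list outside chromosome II in FP and mRNA, D1/2/8 over D1/8. The targets of Pdr1 and Pdr3 (-2.33), the hexose transporters (-1.81) and the ER genes (-1.68) lie lowest in FP, and the 60S assembly factors and the 20S proteasome (0.52 each) lie highest.

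Total mRNA also changed outside chromosome II, and its median among ORFs without a segment varied with base composition. In mRNA 1705 of 5095 ORFs rose and 1757 fell, and 436 and 846 of these lay beyond the D1/8 spread. Among ORFs of equal copy number with no segment, divided into 5 bins of near equal size by the GC content of the coding sequence, the median log2 ratio of mRNA was 0.39, 0.24, 0.09, -0.01 and -0.26, with GC content increasing. The lowest bin held 30.4% to 37.4% GC and the highest 42.9% to 59.1%. The D1/8 cultures over each other ran between -0.04 and 0.05, and FP ran between 0.09 and 0.14. With the trend removed, 1580 ORFs rose and 1758 fell in mRNA, so that the counts of calls changed little. The median of chromosome III in mRNA was -0.16 before and -0.02 after this step, and that of chromosome XI was 0.20 in both. The origin of the trend was not tested.

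**Figure D5:**
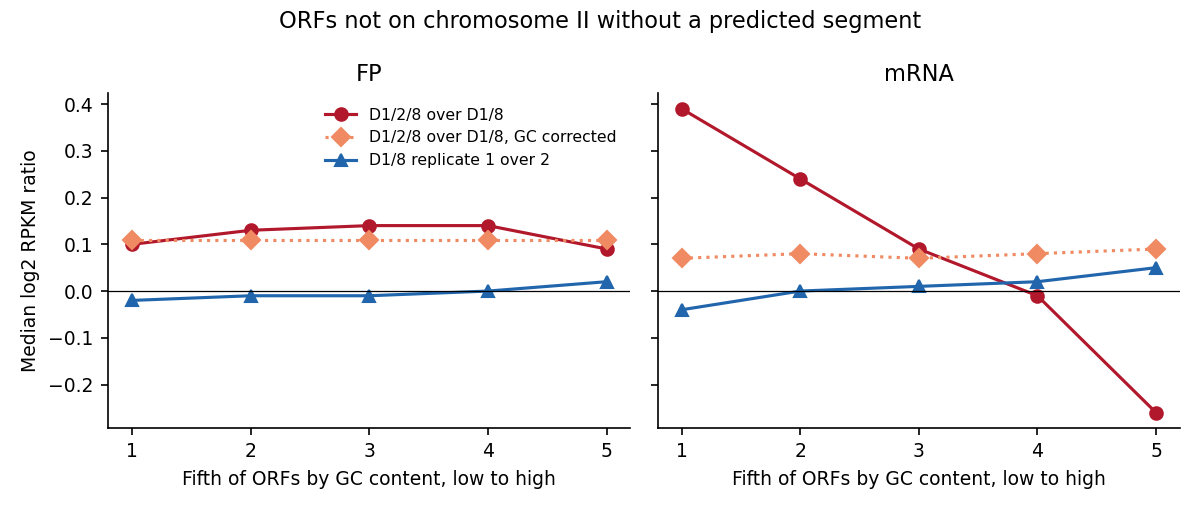
Median log2 ratio of D1/2/8 over D1/8 in 5 bins of GC content of the coding sequence, for ORFs of equal copy number with no predicted segment, in FP and mRNA, with the 2 D1/8 cultures over each other. The mRNA median is 0.39 in the bin with the lowest GC content and -0.26 in that with the highest, while FP stays between 0.09 and 0.14.

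Single genes changed in mRNA by more than the medians of the GC bins. ORFs with no coding sequence in the reference received no GC correction. The largest falls were those of YHR214W (-5.18), YAR066W (-4.79), YAR068W (-3.91) and SIM1 (-3.84). YHR214W and YAR066W cannot each be read alone, as given above. TIR1, a cell wall mannoprotein gene, followed with 8.96 RPKM in D1/2/8, against 96.2 and 126 RPKM in D1/8 (-3.54 ± 0.14). The largest rises were YNL143C (2.97), YOR121C (2.44), YKR040C (2.38), YLR162W (2.22) and ARO10 (2.13). YNL143C had 249 RPKM in D1/2/8, against 19.2 and 52.1 RPKM in D1/8, and its D1/8 cultures were themselves far apart. Glycolytic genes gave 17 falls and no rise of 21 in mRNA, where 34.5% of all ORFs outside chromosome II fell and 33.5% rose. Their median of -0.63 became -0.23 after removal of the GC trend.

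Ribosome density, the FP change minus the mRNA change of the same culture, rose for 249 and fell for 444 of 4689 ORFs outside chromosome II (5.31% and 9.47%). Of 343 chromosome II ORFs 20 rose and 39 fell. Of the 444 falls, 335 have a segment, as have 47 of the 249 rises. Without KLY195 519 rose and 823 fell. Without either D1/8 culture no ORF passed by limma, with 316 to 363 higher and 549 to 582 lower at an unadjusted p under 0.05. The mRNA trend with GC content enters ribosome density, since the mRNA change is subtracted in it. With the trend removed, 209 ORFs outside chromosome II rose in density and 380 fell. In the glycolysis list the median density change was 0.61, and 0.31 with the correction for GC content. In density, TUP1, a general repressor gene, rose most, by 3.02 ± 0.30. It had 210 RPKM in D1/2/8 FP, against 149 and 155 RPKM in D1/8, and 19.9 RPKM in D1/2/8 mRNA, against 113 and 125 RPKM in D1/8. VRP1 (2.74), SRO9 (2.35), IXR1 (2.25) and CLN3 (2.14) followed, and all of these were lower in mRNA in D1/2/8. CLN3 had 27.6 RPKM in D1/2/8 FP, against 15.43 and 15.95 RPKM in D1/8, and 9.89 RPKM in D1/2/8 mRNA, against 23.3 and 28.9 RPKM in D1/8. The largest falls were HSP30 (-2.08), GEP3 (-2.03), SEI1 (-2.03), KCH1 and YJL193W (-1.99). These 10 calls were lost without D1/8 replicate 1 (limma adjusted p from 0.138 to 0.146) and without replicate 2 (0.154 to 0.159).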

How the data were processed

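After adapter removal with Cutadapt, the authors aligned reads to sacCer3 mRNAs using Bowtie, allowing no mismatch, and deposited RPKM per ORF from reads inside coding sequences, each aneuploid library divided by its median ratio to the WT of the run over nonduplicated chromosomes. Values below 4 reads are 0. No UMI was used, so recovered reads give counting error only. They came from the step of 1 read in the deposited RPKM (83.9% to 98.0% of values up to 50 reads lay within 0.05 of a whole read). Of 6061 ORFs, 28 mitochondrial ones were left out. Of 248 spliced ORFs, 247 are at 0 or blank. For 413 ORFs the reference holds no coding sequence, so they were counted as without a segment and received no GC correction.

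Ratios used ORFs above 0 in all libraries compared. limma 3.58.1 (R 4.3.3, lmFit, eBayes with trend) was fitted to log2(RPKM + 0.5), which understates changes of low ORFs, over ORFs of mean RPKM of at least 1, with 1 coefficient per strain and 3 residual degrees of freedom from 3 strains with 2 cultures. Ribosome density was fitted on the difference of the fractions of each culture. The threshold was a Benjamini-Hochberg adjusted p of 0.05. An exact permutation test of 1 against 2 libraries has 3 splits and cannot go below p = 0.33 (two-sided), so none is given. The D1/8 replicates are labelled only as such, so p-values measure the spread of these cultures. The procedure was run on simulated data in which the D1/2/8 library varied like the replicated strains, so that assumption was not tested. The strains, gene lists and hydropathy rule were chosen with earlier results of these data known. The GC correction (25 bins) and the motifs were chosen after the data were seen. Genes named are those of the labels, the 10 largest rises and 10 largest falls in FP, the 6 largest falls in FP without a segment and the 5 largest each way in mRNA and ribosome density among called ORFs beyond the D1/8 spread with RPKM of at least 10, the 6 lowest and 6 highest of chromosome II in FP and 4 in mRNA, and called members of lists, up to 6, and list members on chromosome II. Names beyond this rule (SSS1, SEC72, INH1, CPR6 and RPS8B) were chosen after their values were seen. Sequences and coordinates are of RefSeq R64, the assembly of sacCer3.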

Additional observations from a re-analysis of the deposited data

How the results depend on the processing

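The 44 changes of single genes chosen by the naming rule kept their direction in all 619 results under alternatives and their call in 585, and 34 lost the call, 15 without D1/8 replicate 1 and 14 without replicate 2. Leaving out 1 library at a time gave 25 to 889 rises and 509 to 1188 falls in FP outside chromosome II, 0 to 34 chromosome II ORFs above and 53 to 112 below copy number in FP, and 0 to 518 rises and 0 to 823 falls in ribosome density. The low ends came from leaving out a D1/8 culture (25 and 42 FP rises), leaving out a D1/2/8/11 culture gave 214 FP rises, 6 ORFs above copy number and 139 and 151 density rises, and leaving out a KLY195 library gave the high ends. In mRNA these ranges were 1601 to 1695 rises, 1681 to 1757 falls, 79 to 82 above and 157 to 159 below copy number. The chromosome II median lay between 0.823 and 0.861 for FP and between 0.899 and 0.931 for mRNA. ORFs with a segment differed from those without one by -0.780 to -0.736 in FP (-1.264 to -1.252 on chromosome II) and by -0.370 to -0.357 in mRNA (-0.508 to -0.473 on chromosome II).

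With ratios centred on ORFs without a segment, FP gave 183 rises, 5 ORFs above copy number and 180 beyond the spread upward, and the chromosome II medians were 0.719 in FP and 0.821 in mRNA. With only the libraries of D1/2/8 and D1/8 in the fit, FP gave 1290 rises and 1460 falls, 54 above and 143 below copy number, and ribosome density gave 775 rises and 1252 falls. Without KLY195 the counts were 885 FP rises, 34 above copy number and 519 and 823 in ribosome density, and without pairing the fractions of a culture density gave 427 rises and 699 falls. With a pseudocount of 1 the medians were 0.807 and 0.865 and the segment differences -0.673 and -1.144 in FP and -0.334 and -0.484 in mRNA (elsewhere and on chromosome II). A minimum mean RPKM of 10 gave -0.811 and -1.435 in FP and -0.383 in mRNA elsewhere, and the 19-residue window alone gave -0.823 in FP, and -0.384 and -0.536 in mRNA. A 2-fold spread rule gave 51 rises in FP and 61 rises and 393 falls in mRNA. The causes of these changes were not tested. Of 104 list medians, 9 changed sign under some setting.

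No paired analysis was possible because D1/2/8 was grown as 1 culture whose label gives no replicate number, so fewer than 2 numbers are shared. The single D1/2/8 culture limits every call, and its FP library is the shallowest of the 3.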
